A study of Mus musculus with 14 samples.

Results

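The 10 genes described here build the MHC class I antigen presentation pathway of the mouse spleen: the heavy chains H2-K1 and H2-D1, their light chain B2m, the peptide transporter genes Tap1 and Tap2, the loading chaperone Tapbp, the immunoproteasome subunits Psmb8, Psmb9 and Psmb10, and Nlrc5, the regulator that switches class I genes on. They were chosen by name, as all array probes whose accession maps by RefSeq to these symbols, and they stand for 10 of the 24908 genes tested. In all, 15 probes matched, of which 14 were bright enough to be tested, and each gene was read from its brightest probe unless another is named.

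RNA came from splenocytes of 7 WT and 7 Sting gt/gt mice, 1 Agilent array per mouse, so a replicate is a separate mouse. Both groups were 10-14 weeks old when they received chicken collagen type II (CII) in complete Freund's adjuvant (CFA), the first immunization of the collagen-induced arthritis model. Splenocytes were taken 2 weeks later, and red blood cells were lysed before RNA extraction. WT mice were bought from a national animal center, and the paper does not name their strain. Sting gt/gt mice (golden ticket, Tmem173gt) carried a Sting allele made with the mutagen ENU on a C57BL/6 background and were provided by another laboratory. The paper states that mice were bred and kept at the authors' medical faculty, with no statement that the groups were littermates. No uninjected mice were analysed here, so the levels of the 10 genes have no unimmunized background. Replicates 1 to 3 of both groups were scanned on 1 day (scan day 1) and replicates 4 to 7 on another (scan day 2). On scan day 2 all 4 Sting gt/gt arrays lay on 1 slide and the 4 WT arrays on 2 others, so slide and genotype cannot be told apart there.

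Class I molecules show peptides from inside the cell to CD8+ T cells and to receptors of natural killer cells. The proteasome cuts proteins into peptides, TAP carries the peptides into the endoplasmic reticulum, tapasin and its partners load them onto a heavy chain paired with beta-2 microglobulin, and the loaded complex moves to the cell surface. Interferons raise most of these genes together, and STING is the adaptor of cytosolic DNA sensing that starts the making of type I interferon, so the genotype comparison addresses whether a mouse without working STING differs in this machinery 2 weeks after immunization.

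The genes are clustered in the genome. On GRCm38.p6, 7 of the 10 lie on chromosome 17, in or near the MHC, B2m lies alone on chromosome 2, and Psmb10 and Nlrc5 lie on chromosome 8. Tap1 and Psmb9 are divergent neighbours whose start sites are separated by 225 bases, and 969 bases lie between Tap1 and Psmb8. RefSeq promoter windows were at hand for 8 of the 10 genes. The 3 windows below are shown because they hold the start regions of a classical heavy chain, of its light chain and of the gene pair that shares 1 stretch. They are given for the plus strand of GRCm38.p6, 5′ to 3′, as RefSeq has them, and capitals mark matches on either strand to the motifs searched. The H2-D1 window is chr17:35262844-35263093, the B2m window is chr2:122147437-122147686, which lies inside the span of a neighbouring gene, Patl2, and the stretch between Psmb9 and Tap1 is chr17:34187331-34187555.
H2-D1 upstream: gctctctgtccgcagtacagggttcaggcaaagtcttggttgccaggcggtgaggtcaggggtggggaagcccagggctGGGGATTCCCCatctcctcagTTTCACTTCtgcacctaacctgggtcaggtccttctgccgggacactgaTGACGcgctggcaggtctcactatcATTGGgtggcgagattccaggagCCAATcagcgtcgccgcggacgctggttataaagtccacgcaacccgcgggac
B2m upstream: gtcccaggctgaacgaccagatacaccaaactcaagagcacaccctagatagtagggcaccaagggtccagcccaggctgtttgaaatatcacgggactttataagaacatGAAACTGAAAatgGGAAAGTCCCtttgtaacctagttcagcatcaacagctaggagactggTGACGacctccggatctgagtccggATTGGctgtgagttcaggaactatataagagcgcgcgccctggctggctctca
Psmb9 to Tap1: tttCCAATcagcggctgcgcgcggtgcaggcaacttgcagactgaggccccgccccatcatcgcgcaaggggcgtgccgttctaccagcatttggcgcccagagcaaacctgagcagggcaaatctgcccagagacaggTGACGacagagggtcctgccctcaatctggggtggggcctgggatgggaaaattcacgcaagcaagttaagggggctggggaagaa

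Motifs were searched in the 250 bases before each start, on both strands, in 32851 RefSeq windows of the same length. TGACG, the core of the element bound by CREB and ATF factors, was found in 5 of the 8 member windows (H2-K1, H2-D1, B2m, Tap1 and Psmb9) and in 17.8% of all windows. CCAAT, the core of the NF-Y element, was found in 6 of the 8 and in 33.8% of all windows. The NF-kB consensus was matched in H2-K1, H2-D1 and B2m and in 7.25% of all windows, with matches that overlap by all but 1 base in H2-K1 and H2-D1. The interferon response letters GAANNGAAA were found in H2-K1 and H2-D1 and in 6.31% of all windows, and the longer ISRE consensus, GAAA repeated with a gap of 2 bases, in B2m and in 2.98%. In H2-D1 the order from far to near was NF-kB consensus (the farther match at 162 to 171 bases before the start), GAANNGAAA (142 to 150), TGACG (97 to 101) and CCAAT (72 to 76 and 49 to 53), and in B2m it was ISRE consensus (130 to 139), NF-kB consensus (117 to 126), TGACG (74 to 78) and CCAAT (49 to 53). The single TGACG and the single CCAAT of the Psmb9 to Tap1 stretch are counted for both genes, since both windows contain them. The STAT letters TTCNNNGAA were found in Psmb8 alone among the 8 and in 7.02% of all windows. These matches are letters in a window and were not tested for binding.

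All 14 arrays measured the pathway well. Each gene's brightest probe was well above background on 14 of 14 arrays and saturated on none. Across the series, 30781 to 34400 probes per array were well above background, and Sting1 itself, whose golden ticket change is a point mutation, so that its RNA level does not check the labels, ranged from 2.35 to 2.85 in WT and from 2.45 to 2.77 in Sting gt/gt. Values are log2 processed signal minus the 75th percentile of the array, so a value of 0 is the 75th percentile itself and a step of 1 is a doubling. They compare mice within a gene, not 1 gene with another. In RNA from whole splenocytes, fewer cells of a type and less RNA per cell cannot be told apart.

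Over all 14 arrays the genotypes gave no call in the pathway. None of the 10 passed an unadjusted p of 0.05 in the limma fit, against 3.48% of all genes tested (868 genes), and none passed after Benjamini-Hochberg adjustment, against 0.00401% (1 gene). The count was also 0 of 10 by the methods' t-test and by an exact Mann-Whitney test. The lowest unadjusted p among the members was 0.33, and every adjusted p was 1.0. Of the 10 differences, 7 were above 0 and 3 below, with a median of 0.05 on the log2 scale beside 0.02 for all genes tested. The 95% confidence intervals ended at the latest at a 1.41-fold higher level in Sting gt/gt (Psmb9) and at 0.79 times the WT level (Nlrc5), so larger differences than these lie outside every interval. The groups overlapped in all 10 genes, as they did in nearly all genes tested (0.0442% did not overlap).

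**Figure D1:**
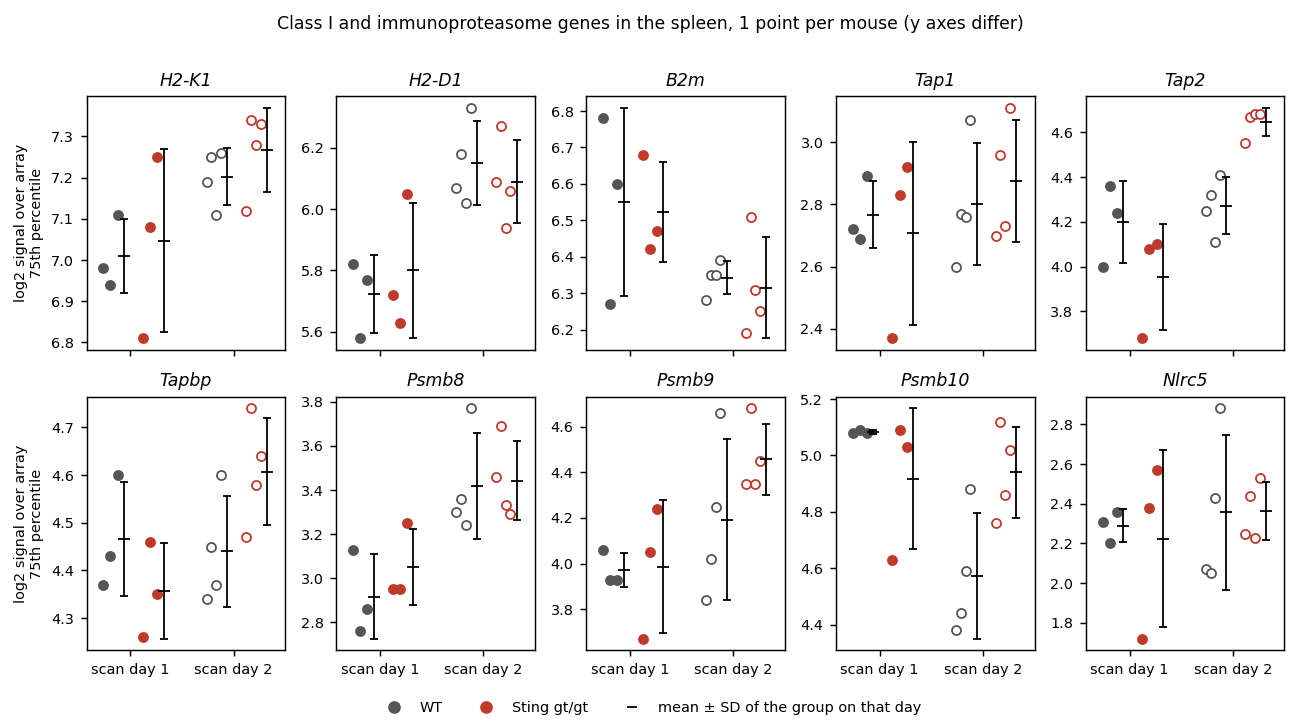
Log2 signal of each gene relative to the 75th percentile of the array, by genotype and scan day, 1 point per mouse (filled points scan day 1, open points scan day 2; bars are the mean ± SD of 3 or 4 mice). The genotypes overlap in every panel except for Tap2 on scan day 2, where the Sting gt/gt mice sit between 4.55 and 4.68 and the WT mice between 4.11 and 4.41.

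The heavy and light chains differed by 0.05 or less on the log2 scale. H2-K1, 1 of the 2 classical heavy chains of the C57BL/6 background, had a median of 7.11 in WT (lowest 6.94, highest 7.26) and of 7.25 in Sting gt/gt (lowest 6.81, highest 7.34). The lowest mouse, Sting gt/gt 1, and the highest, Sting gt/gt 5, were of the same genotype. The difference was 0.05 ± 0.10 (SE, n = 7 per group; exact permutation p = 0.564), a 1.04-fold level with a 95% interval from 0.89 to 1.2. H2-D1, the other classical heavy chain, had a median of 6.02 in WT (lowest 5.58, highest 6.33) and of 6.05 in Sting gt/gt (lowest 5.63, highest 6.27). Its mean was 5.97 in both groups, and the interval of the fold ran from 0.82 to 1.22 (exact permutation p = 0.993). B2m, the light chain that all classical heavy chains need to fold, had a median of 6.35 in WT (lowest 6.27, highest 6.78) and of 6.42 in Sting gt/gt (lowest 6.19, highest 6.68). Its difference was -0.03 ± 0.11 (SE, n = 7 per group; exact permutation p = 0.78), with a fold between 0.84 and 1.15. Heavy chain genes are close copies of one another and probe sequences were not used here, so how far the H2-K1 and H2-D1 probes also read other heavy chains was not tested.

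The transporter and its chaperone did not pass either. Tap1, a subunit of the peptide pump, had a median of 2.76 in WT (lowest 2.6, highest 3.07) and of 2.83 in Sting gt/gt (lowest 2.37, highest 3.11), with a difference of 0.02 ± 0.12 (SE; exact permutation p = 0.893, n = 7 per group). The Sting gt/gt mice enclosed the whole range of the WT mice. Tap2, the other subunit of the pump, had a median of 4.25 in WT (lowest 4.0, highest 4.41) and of 4.55 in Sting gt/gt (lowest 3.68, highest 4.68). Its SD was 0.40 in Sting gt/gt and 0.14 in WT, since 3 Sting gt/gt mice lay at 4.10 or below and 4 at 4.55 or above. The difference in means was 0.10 ± 0.16 (SE; exact permutation p = 0.527, n = 7 per group). With slide as a fixed block the difference was -0.36 and passed, but it was estimated only from the 2 slides that held both groups. Both were of scan day 1 and held WT 1 to 3 and Sting gt/gt 1 and 2. No mouse of scan day 2 had a part in that difference. Tapbp, which encodes tapasin and holds empty class I molecules at the pump, had a median of 4.43 in WT (lowest 4.34, highest 4.60) and of 4.47 in Sting gt/gt (lowest 4.26, highest 4.74), a difference of 0.05 ± 0.09 (SE; exact permutation p = 0.50, n = 7 per group).

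The immunoproteasome subunits held the 2 largest of these differences, and none of the 3 passed the test. Psmb8 (LMP7), the chymotrypsin-like subunit, had a median of 3.24 in WT (lowest 2.76, highest 3.77) and of 3.29 in Sting gt/gt (lowest 2.95, highest 3.69), a difference of 0.07 ± 0.16 (SE; exact permutation p = 0.656, n = 7 per group). Psmb9 (LMP2), which shares its start region with Tap1, had a median of 4.02 in WT (lowest 3.84, highest 4.66) and of 4.35 in Sting gt/gt (lowest 3.67, highest 4.68). Its difference of 0.16 ± 0.16 (SE; exact permutation p = 0.342, n = 7 per group) was the largest of the 10. Psmb10 (MECL-1), the third inducible subunit, had a median of 4.88 in WT (lowest 4.38, highest 5.09) and of 5.02 in Sting gt/gt (lowest 4.63, highest 5.12), a difference of 0.14 ± 0.14 (SE; exact permutation p = 0.332, n = 7 per group). With slide as a fixed block, on the same mice of scan day 1 alone, the Psmb9 and Psmb10 differences were -0.13 and -0.26. With slide as a random block they were 0.015 and 0.004. For all 3 the highest Sting gt/gt mouse was Sting gt/gt 5, and the lowest was Sting gt/gt 1 for Psmb9 and Psmb10.

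Nlrc5, the class I transactivator, did not pass. It had a median of 2.31 in WT (lowest 2.05, highest 2.88) and of 2.38 in Sting gt/gt (lowest 1.72, highest 2.57), with a difference of -0.03 ± 0.15 (SE; exact permutation p = 0.87, n = 7 per group) and a fold between 0.79 and 1.23. The highest mouse of all was WT 7 and the lowest Sting gt/gt 1, at 1.72 against 2.23 for the next Sting gt/gt mouse.

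Second probes gave no call either. Of the 14 tested probes none passed, against 3.43% of all probes. The second probes of H2-K1, Tap1, Tapbp and Nlrc5, each well above background on 14 of 14 arrays, differed by 0.01, 0.08, 0.07 and -0.01. The second Tap2 probe was well above background on 1 of 14 arrays and was not tested, so Tap2 rests on 1 probe. Within a scan day the 2 probes of a gene did not always follow each other: for Nlrc5 r was 0.69 over the 6 mice of scan day 1 and 0.66 over the 8 of scan day 2, for H2-K1 0.84 and 0.12, for Tap1 0.07 and 0.68, and for Tapbp -0.54 and 0.63, where the second probe stands for another transcript accession. Differences between mice of the size seen here therefore depend on the probe for H2-K1, Tap1 and Tapbp.

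With scan day in the model, 0 of the 10 passed, against 7.27% of all genes, and with replicates paired by number 0 of the 10, against 5.68%. The scan days themselves differed in 6 of the 10 at an unadjusted p under 0.05 (H2-K1, H2-D1, Tap2, Psmb8 and Psmb9 higher and B2m lower on scan day 2), against 47.3% of all genes tested, and in 3 after adjustment over all genes (H2-D1, Tap2 and Psmb8), against 38.8%. Psmb8 was 0.44 ± 0.11 higher on scan day 2 (limma, adjusted p = 0.00493) and H2-D1 0.36 ± 0.09 higher (limma, adjusted p = 0.0073). B2m was 0.21 lower (limma, unadjusted p = 0.0376, adjusted p = 0.0845). These shares are near those of all genes.

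Within scan days 2 genes passed, on 1 of the 2 days. On scan day 1 (3 against 3 mice) 0 of 10 members passed, against 3.86% of all genes. On scan day 2 (4 against 4 mice) Tap2 and Psmb10 were higher in Sting gt/gt, 2 of 10 against 23.3% of all genes, or against 11% that were higher, and neither passed after adjustment, as 1.69% of all genes did. The members' share is thus near that of the whole array on that day. Their median difference on scan day 2 was 0.07, beside 0.02 for all genes, and on scan day 1 it was -0.04, beside 0.02.

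Tap2 on scan day 2 read 4.25, 4.32, 4.11 and 4.41 in the WT mice and 4.55, 4.67, 4.68 and 4.68 in the Sting gt/gt mice. Every Sting gt/gt mouse was above every WT mouse, which held for 14.7% of all genes on that day in 1 direction or the other and for 7.31% in this direction. The difference was 0.37 ± 0.10 (SE), a 1.29-fold level with a 95% interval from 1.11 to 1.51 (limma, unadjusted p = 0.00445, adjusted p = 0.0802; exact permutation p = 0.0286, the smallest that 4 against 4 can give). Without scaling between arrays it was 0.33 and missed the threshold (limma, unadjusted p = 0.0552). On scan day 1 Tap2 read 4.0, 4.36 and 4.24 in WT and 3.68, 4.08 and 4.10 in Sting gt/gt. There the Sting gt/gt mice lay lower, with overlap, at a difference of -0.25 ± 0.18 (limma, unadjusted p = 0.191; exact permutation p = 0.3, where 3 against 3 cannot go below 0.1).

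Psmb10 on scan day 2 read 4.38, 4.44, 4.59 and 4.88 in WT and 4.76, 5.12, 4.86 and 5.02 in Sting gt/gt. The ranges overlapped through WT 7, the highest WT mouse. The difference was 0.37 ± 0.14 (SE), a 1.29-fold level with a 95% interval from 1.04 to 1.60 (limma, unadjusted p = 0.024, adjusted p = 0.154; exact permutation p = 0.0857). It missed the threshold when WT 4, WT 5, Sting gt/gt 5 or Sting gt/gt 7 was left out (limma, unadjusted p = 0.0695, 0.0658, 0.0646 and 0.0518), under quantile normalization (0.0699), without scaling (0.121) and in the deposited log2 table (0.0728), while Tap2 kept its call with each mouse of that day left out in turn. On scan day 1 Psmb10 read 5.08, 5.09 and 5.08 in WT and 4.63, 5.09 and 5.03 in Sting gt/gt, a difference of -0.17 ± 0.16, with 1 low mouse, Sting gt/gt 1.

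The change of the genotype difference from scan day 1 to scan day 2 was 0.63 ± 0.18 for Tap2 (limma interaction, unadjusted p = 0.00438, adjusted p = 0.102; exact permutation within days p = 0.00429) and 0.54 ± 0.21 for Psmb10 (limma interaction, unadjusted p = 0.0219, adjusted p = 0.196; exact permutation within days p = 0.0243). These 2 of 10 compare with 18% of all genes for the interaction. Tapbp had an exact permutation p of 0.0386 for the same change and did not pass in limma (unadjusted p = 0.0949). The other 7 members had unadjusted p between 0.351 and 0.988.

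**Figure D2:**
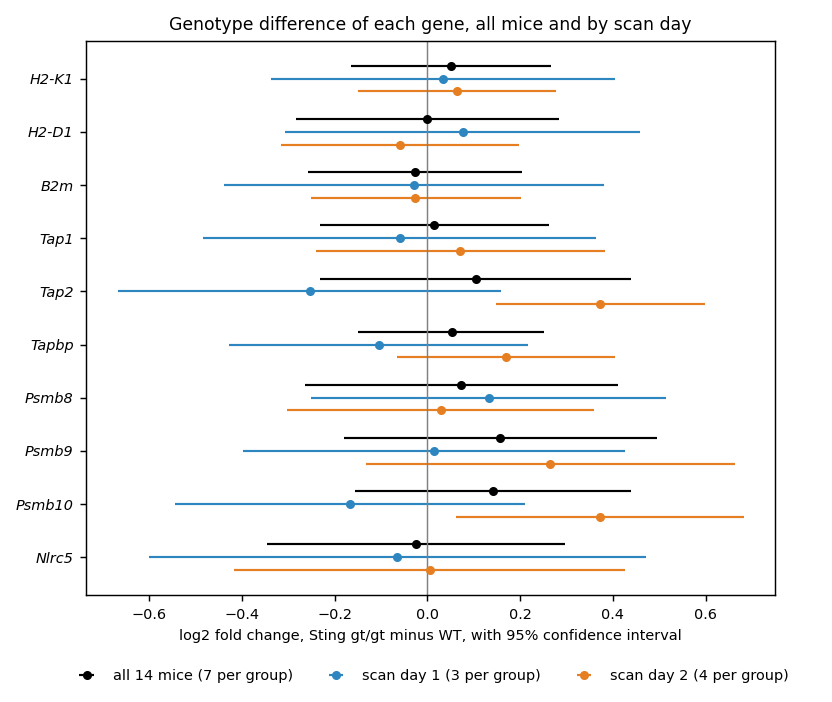
Log2 fold change (Sting gt/gt minus WT) of each gene with its 95% confidence interval from limma, for all 14 mice, for the 3 mice per group of scan day 1 and for the 4 per group of scan day 2. All intervals over the 14 mice include 0, and on scan day 2 those of Tap2 and Psmb10 lie above 0.

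Cell markers also passed on that day, on which 23.3% of all genes did. On scan day 2, 6 of 8 B cell markers passed at an unadjusted p of 0.05 and were lower in Sting gt/gt, 3 of 6 plasma cell markers passed and were higher, and 6 of 10 erythroid markers passed and were lower. After adjustment over all genes 0 of 8, 1 of 6 and 1 of 10 passed. Of the 6 plasma cell markers 2 were lower in Sting gt/gt on that day and did not pass. Of the 10 erythroid markers 2 were higher and did not pass, the globin genes Hbb-bt (0.09) and Hba-a1 (0.02). Of the other lists 0 of 7 T cell, 1 of 7 natural killer cell, 1 of 8 neutrophil, 0 of 9 macrophage and monocyte and 2 of 8 dendritic cell markers passed at the unadjusted p. The mean log2 level of the 8 B cell markers ran from 2.36 to 2.89 in WT and from 1.99 to 2.31 in Sting gt/gt on scan day 2, without overlap, while on scan day 1 it ran from 1.92 to 2.32 and from 2.21 to 2.69. That of the 6 plasma cell markers ran from 1.66 to 2.0 in WT and from 1.98 to 2.36 in Sting gt/gt on scan day 2, and that of the 10 erythroid markers from 4.75 to 5.24 and from 4.49 to 4.74. On scan day 1, 1 of 8 B cell markers passed, higher, and 1 of 6 plasma cell markers, lower. Of the erythroid markers 0 of 10 passed, beside 3.86% of all genes. The mean level of the plasma cell markers ran there from 1.56 to 1.61 in WT and from 1.44 to 1.64 in Sting gt/gt, and that of the erythroid markers from 4.83 to 5.41 and from 4.6 to 5.61. That of the 9 markers of macrophages and monocytes ran from 4.04 to 4.31 and from 4.04 to 4.48 on scan day 2. As for the labelled tissue, of 8 B cell, 8 T cell and 7 natural killer cell markers, 8, 7 and 7 were bright enough to be tested. Over all 14 mice the erythroid marker Tfrc, the transferrin receptor gene, passed (-0.52). The part of these markers in the Tap2 and Psmb10 values was not tested.

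In every member the SD within each genotype (0.11 to 0.40 on the log2 scale) was larger than the difference between the genotypes over all 14 mice. Across the 14 mice the highest and lowest value of a gene differed by 1.39-fold (Tapbp) to 2.22-fold (Nlrc5). Correlations were taken over both genotypes after the mean of each scan day was removed, so genotype differences within a day remain in them. Of the 45 pairs of members, 39 had a correlation above 0, with a median r of 0.51. The closest pairs were Nlrc5 with Tap1 (r = 0.89), Psmb9 with Psmb10 (0.87), H2-D1 with Psmb8 (0.86) and Tapbp with Psmb10 (0.86). All 45 pairs shared the same 14 arrays and their scaling, so these values describe the arrays and carry no test. B2m had the lowest r with the average of the other 9 (0.09, against 0.48 to 0.88 for the rest), and its value was 0.44 under quantile normalization, 0.53 in the deposited log2 table and 0.56 without scaling.

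The same mice were high or low in many members at once. Sting gt/gt 5 was above the mean of its day in 10 of 10 members and WT 7 in 9, while WT 4 was above it in 0 and Sting gt/gt 1 in 1. Averaged over the 10 members as standardized deviations, the lowest mice were Sting gt/gt 1 (-1.12) and WT 4 (-1.03), and the highest were Sting gt/gt 5 (1.15) and WT 7 (0.95). Each genotype thus held a mouse at either end.

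**Figure D3:**
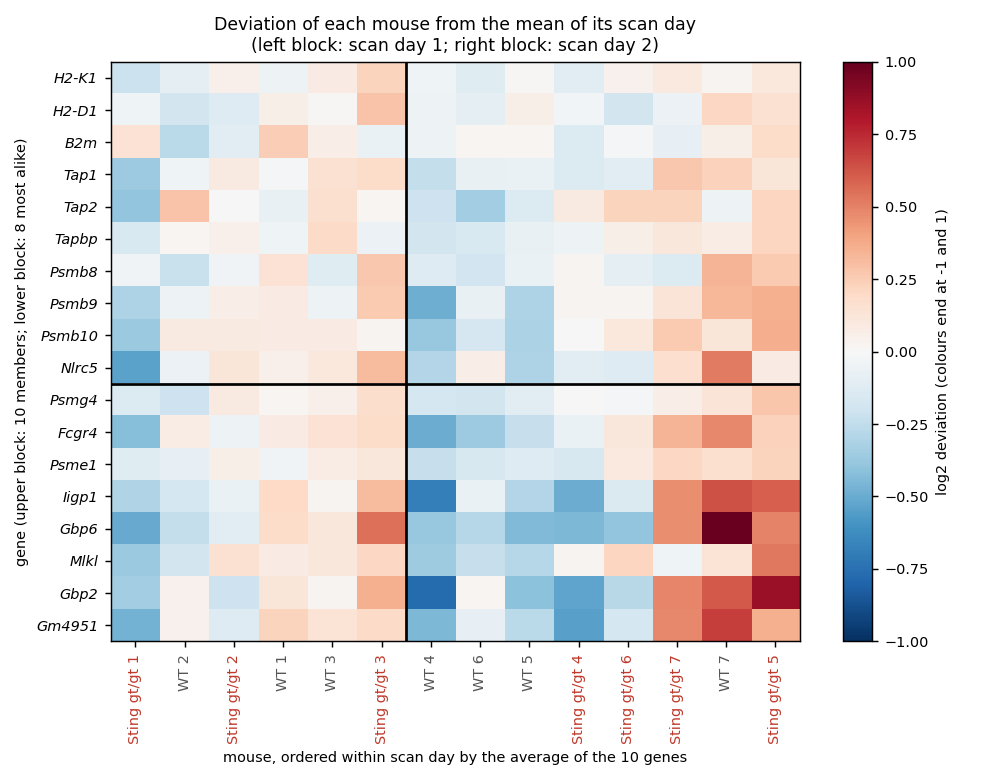
Log2 deviation of each mouse from the mean of its scan day, for the 10 members (upper block) and the 8 genes most like them (lower block), with mice ordered within each day by the average of the 10 members and labels coloured by genotype (red Sting gt/gt, grey WT). Columns are coloured much the same from top to bottom, with Sting gt/gt 1 and WT 4 low and Sting gt/gt 5 and WT 7 high, and B2m and Tap2 depart most from the pattern in this scaling.

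Nlrc5 was set against the other 9 members within each scan day, 18 relations in all. The Pearson correlation was above 0 in 17 of 18, and 4 passed after Benjamini-Hochberg adjustment over the 18, while 0 passed by Spearman's rho. With Tap1, r was 0.97 on scan day 1 (n = 6, exact permutation p = 0.00278, adjusted p = 0.0437; rho = 0.94, exact permutation p = 0.0167, adjusted p = 0.1) and 0.83 on scan day 2 (n = 8, exact permutation p = 0.00918, adjusted p = 0.0437; rho = 0.71, exact permutation p = 0.0576, adjusted p = 0.175). Without the 2 mice farthest from the median of Nlrc5, r was 0.83 and 0.90, but in the same check it was 0.29 on scan day 1 with normexp, and 0.30 on scan day 2 both under quantile normalization and in the deposited log2 table. These values belong to the brightest Tap1 probe, which the second Tap1 probe did not follow on scan day 1. With Psmb9, r was 0.94 on scan day 1 (n = 6, exact permutation p = 0.00972, adjusted p = 0.0437; rho = 0.83, exact permutation p = 0.0583, adjusted p = 0.175) and fell to 0.47 without the 2 farthest mice. In the same check it was 0.31 under quantile normalization and in the deposited log2 table, 0.68 with normexp and 0.96 without scaling. How far it rests on the 2 farthest mice thus varied with the scaling. On scan day 2 it was 0.81 (n = 8, exact permutation p = 0.0141, adjusted p = 0.0506; rho = 0.83, exact permutation p = 0.0154, adjusted p = 0.1) and 0.75 without them. With H2-K1, r was 0.92 on scan day 1 (n = 6, exact permutation p = 0.00556, adjusted p = 0.0437; rho = 0.94, exact permutation p = 0.0167, adjusted p = 0.1) and 0.28 on scan day 2 (n = 8, exact permutation p = 0.512, adjusted p = 0.576; rho = 0.38, exact permutation p = 0.36, adjusted p = 0.697), where its 2 probes did not follow each other. Without the 2 farthest mice, r with H2-K1 on scan day 1 was 0.86 in this scaling, 0.91 without scaling and 0.53 with normexp. It was -0.41 under quantile normalization and -0.4 in the deposited log2 table.

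Tap2 and B2m did not pass against Nlrc5 on either day. With Tap2, r was 0.63 on scan day 1 (n = 6, exact permutation p = 0.19, adjusted p = 0.339; rho = 0.26, exact permutation p = 0.658, adjusted p = 0.697) and turned to -0.63 without the 2 farthest mice, and on scan day 2 it was 0.16 (n = 8, exact permutation p = 0.703, adjusted p = 0.703; rho = 0.36, exact permutation p = 0.389, adjusted p = 0.697). With B2m, r was -0.27 (n = 6, exact permutation p = 0.635, adjusted p = 0.672; rho = -0.26, exact permutation p = 0.658, adjusted p = 0.697) and 0.34 (n = 8, exact permutation p = 0.413, adjusted p = 0.531; rho = 0.21, exact permutation p = 0.619, adjusted p = 0.697). Several relations on scan day 2 depended on the scaling. Under quantile normalization r of Nlrc5 with B2m on that day was 0.85 (n = 8, exact permutation p = 0.00615) and with H2-K1 0.73 (n = 8, exact permutation p = 0.0389), with H2-D1, Tapbp and Psmb10 it was 0.75, 0.73 and 0.70 (without the 2 farthest mice H2-K1, H2-D1 and Tapbp were at -0.14, -0.04 and 0.04), and in the log2 table that the authors deposited B2m and H2-K1 were at 0.86 and 0.71. Tap1 and Psmb9 kept an unadjusted exact permutation p under 0.05 on both days under the 5 other settings run, while after adjustment both missed 0.05 on both days under median centring (adjusted p = 0.055 each). Tap1 on scan day 2 and Psmb9 on scan day 1 also missed it under quantile normalization (adjusted p = 0.054 and 0.0779) and in the deposited table (0.053 and 0.0838), and with normexp Tap1 on scan day 1 and Psmb9 on both days stood at 0.05. H2-K1 on scan day 1 had an adjusted p of 0.0779 and 0.0838 in these settings, 0.05 under median centring and with normexp, and 0.04 without scaling. B2m values in that table had r = 0.44 with those used here, the lowest of the 10 genes' brightest probes.

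**Figure D4:**
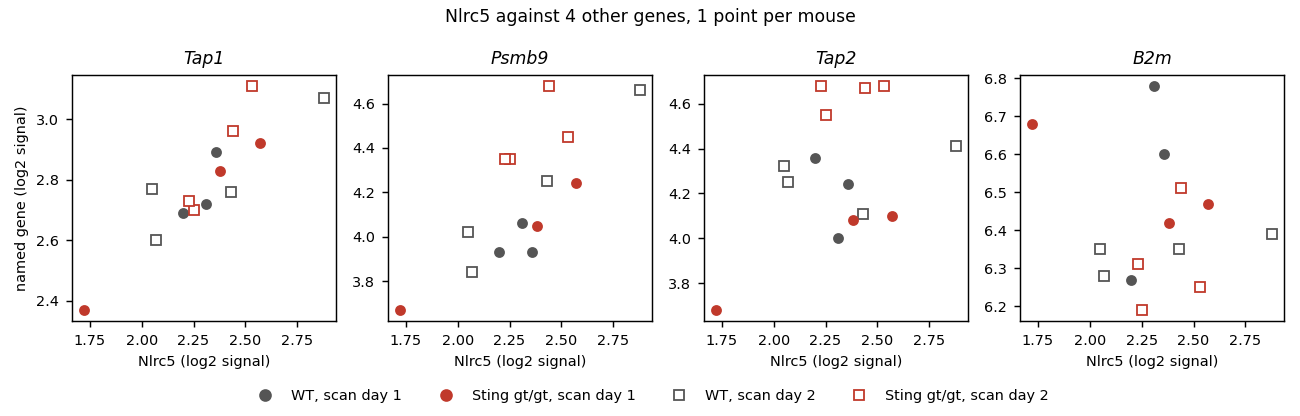
Log2 signal of Tap1, Psmb9, Tap2 and B2m against Nlrc5, 1 point per mouse, by genotype and scan day. Tap1 and Psmb9 rise with Nlrc5 on both days, the Sting gt/gt mice of scan day 2 stand apart in Tap2, and B2m shows no common slope in this scaling.

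Genes other than the members varied with them from mouse to mouse, among them Psme1, which is also in the pathway lists described below. Among 14719 genes with a symbol, the 8 with the highest r between their deviations and the average of the members, over 14 mice, were Psmg4 (0.91), Fcgr4 (0.91), Psme1 (0.89), Iigp1 (0.89), Gbp6 (0.89), Mlkl (0.87), Gbp2 (0.85) and Gm4951 (0.85), where the median of all genes was 0.04. Psme1 encodes a subunit of the proteasome activator PA28 and Psmg4 a proteasome assembly chaperone. Gbp2, Gbp6 and Iigp1 are interferon-induced GTPases, Fcgr4 is an activating Fc receptor of myeloid cells for IgG, and Mlkl is the effector of necroptosis. Gbp2 had a median of 1.61 in WT (lowest 1.39, highest 2.99) and of 1.85 in Sting gt/gt (lowest 1.02, highest 3.24), and its highest mice were Sting gt/gt 5 and WT 7, those that led the members. Iigp1 had a median of 2.44 in WT (lowest 2.06, highest 3.76) and of 2.63 in Sting gt/gt (lowest 1.93, highest 3.72). Fcgr4 ran from 1.55 to 2.53 and from 1.39 to 2.39 (medians 1.89 and 2.0). The groups overlapped in each of these 3 genes, and none of the 8 passed over all mice (limma, unadjusted p from 0.153 to 0.939). In the deposited log2 table Fcgr4 (0.94), Gbp6 (0.93) and Psme1 (0.92) stayed among the 4 highest, Psmg4 had r = 0.81 and Mlkl 0.61.

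The rest of the pathway was read from 7 lists of 107 genes, of which 87 were tested. Over all mice 1 of 87 passed at an unadjusted p of 0.05, beside 3.48% of all genes, and 0 after adjustment. It was Ifnar1, a chain of the type I interferon receptor, which had a median of 3.32 in WT (lowest 3.14, highest 3.38) and of 3.1 in Sting gt/gt (lowest 2.68, highest 3.25). It was lower in Sting gt/gt, at -0.24 ± 0.10 (limma, unadjusted p = 0.0251, adjusted p = 1.0). With scan day in the model 5 of 87 passed, against 7.27% of all genes. These were Ifnar1, the NF-Y subunit gene Nfya (-0.23), Creb1 (-0.27), whose product binds TGACG elements, and the receptor kinase gene Jak2 (-0.22), all lower and all among the 26 genes of class I induction, and the natural killer receptor gene Klra9, which was higher (0.30). The following 2 genes were named after their values were seen. Ifng, the gene of interferon gamma, had a median of -1.66 in WT (lowest -2.33, highest -0.86) and of -1.60 in Sting gt/gt (lowest -2.65, highest -0.92), and Irf1, a transcription factor gene that it induces, differed by 0.10, and neither passed.

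The lists that work beside the members gave these counts. Of 14 other class I heavy chains tested, 0 passed over all mice and 10 differences were below 0 (median -0.02). The signs changed with the day: 13 of the 14 were above 0 on scan day 1, and 11 were below 0 on scan day 2. Of the 12 genes of peptide loading and quality control in the endoplasmic reticulum, 0 passed and 11 differences were above 0 (median 0.10). Of 8 cytosolic peptidases 0 passed (median 0.10), of 9 proteasome activator, assembly and catalytic partner genes 0 passed (median 0.10), and of 6 class I related heavy chains and 12 receptors that read class I 0 passed (medians 0.05 and 0.16). Over all genes tested the median was 0.02 and 3.48% passed.

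On scan day 2, 22 of the 87 passed, 15 higher and 7 lower, beside 23.3% of all genes. The loading list had 6 of 12, of which 5 were higher, and on scan day 1 it had 0 of 12, with 9 differences below 0. The genes named next were chosen after their values were seen. Uggt1, which checks the folding of glycoproteins, was higher by 0.40 and Calr, the chaperone calreticulin, by 0.33 on scan day 2 (limma, unadjusted p = 0.00539 and 0.0265), and the trimming peptidase Erap1 by 0.36 (unadjusted p = 0.00849). On scan day 1 these differed by -0.12, -0.16 and -0.12. Psmg1, which helps assemble proteasomes, was higher by 0.45 on scan day 2 (unadjusted p = 0.00687). The heavy chain gene H2-Q4 stood at -0.60, the 1 list gene to pass after adjustment on that day (limma, adjusted p = 0.0497), against a difference of 0.21 on scan day 1.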

How the data were processed

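Splenocyte RNA of 7 WT and 7 Sting gt/gt mice was measured on 14 one-colour Agilent arrays. Per the file headers, the authors made the intensity values with Agilent Feature Extraction 11.0.1.1, whose background correction works spot by spot, with no scaling of arrays to each other. The authors also deposited a table of log2 values, whose normalization is not given in the sources used here. Each of its columns followed the log2 intensity of the same array at r = 0.997 to 0.999, its medians lay between 5.485 and 5.518, and its sorted values hardly differ between arrays. It was used as an alternative.

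From the log2 of the processed intensity the 75th percentile of the array was subtracted, without outlier spots and with replicate spots averaged. A probe had to be well above background on 7 of 14 arrays or more (31766 of 56605 were). The number of arrays limits the precision. Accessions without versions were matched to RefSeq symbols, which named 32994 probes (58.3%). The brightest tested probe stood for a gene. Groups were compared by limma 3.58.1 in R 4.3.3 with no covariate, at an unadjusted p of 0.05 and with Benjamini-Hochberg adjustment over 24908 genes, after a test on simulated data. Each member also had an exact permutation test, two-sided (3432 splits, or 1400 within scan days for the difference between days). Other steps were made in Python 3.11.15 with numpy 2.4.6, pandas 2.3.3, scipy 1.17.1 and matplotlib 3.10.9. Alternatives covered the scaling, background correction, deposited table, filter, flags, probes, test (with the methods' t-test and Mann-Whitney test), replicate number, scan day, slide and each array left out, and 3 kinds of alternative were added after the data were seen.

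The members, gene lists and tests were chosen with earlier results of these data known. Genes to be named besides the members were list genes past the threshold with or without scan day in the model, at most the 3 with the largest change per list, and the 8 most like the members. Jak2 and the genes said above to be chosen after their values were seen were named beyond this rule. Arrays of the same number in both groups deviated together (r = 0.156 to 0.533, each pair above 0.1). Once scan-day means were removed, these values ran from -0.408 to 0.248. The source of the pairing was not tested. Scan day and slide were read from the scanner files. Some list genes are not reported here by name.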

Additional observations from a re-analysis of the deposited data

Results flagged for a closer look

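Nlrc5 in Sting gt/gt 1 stood at 1.72, with the next of the 7 Sting gt/gt mice at 2.23, a gap that was 0.595 of the range of the group and above the 95% critical value for 7 samples. It was the 1 such value among 20 groups checked, and chance flags about 1 in 20. The same mouse was also the lowest of its group in H2-K1, Tap1, Tap2, Tapbp, Psmb9 and Psmb10.

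The genotype difference of Tap2 was larger on scan day 2 than on scan day 1 by 0.627 on the log2 scale, and that of Psmb10 by 0.539, by the test of the difference between days. Neither passed after adjustment over all genes (limma interaction, adjusted p = 0.102 and 0.196).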

How the results depend on the processing

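No member passed over all mice under any scaling, filter, background correction, probe rule or the replicate block, nor with any 1 mouse left out (0 in each). Tap2 passed once array weights with an intensity trend were used (1 of 10, 0.25) and, with Psmb10, on scan day 2 (2 of 10, 0.37 each). Tap2 also passed with slide as a fixed block (1 of 10, at -0.36), estimated from the 2 slides of scan day 1 that held both groups. The count of all genes (868) was 1928 in the deposited table, 4360 with array weights, 1416 with the replicate block, 1812 with scan day, 445 with slide as a random block and 5805 on scan day 2, and 496 to 1967 with 1 mouse left out (496 without Sting gt/gt 6, 539 without Sting gt/gt 5, 1967 without Sting gt/gt 1). List genes that passed (1) were 2 without scaling, with normexp and with the methods' t-test, 7 in the deposited table, 0 with probes averaged or slide as a random block, 15 with array weights, 4 with the replicate block or slide as a fixed block, 5 with scan day, 3 on scan day 1, 22 on scan day 2, and 0 to 8 with 1 mouse left out (0 without Sting gt/gt 5, 8 without Sting gt/gt 1). The replicate block changed no call of a member. The cause of these shifts was not tested.

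Differences of 9 of the 10 members, Psmb8 being the exception (lowest 0.0, without WT 2), changed sign under 1 setting or more. Tap1 was at 0.0 under quantile normalization. Without scaling H2-K1, Tap1 and Tapbp were at -0.003, -0.039 and -0.002. With normexp H2-D1 and Nlrc5 were at 0.005 and 0.001, and Nlrc5 was at 0.012 with array weights and 0.005 on scan day 2. On scan day 1 H2-D1, Tap1, Tap2, Tapbp and Psmb10 were at 0.076, -0.059, -0.254, -0.105 and -0.167. With slide as a fixed block, estimated on scan day 1 alone, H2-K1, B2m, Tap1, Tapbp, Psmb9 and Psmb10 were at -0.102, 0.008, -0.216, -0.135, -0.134 and -0.256. With slide as a random block H2-K1, B2m, Tap1, Tap2 and Tapbp were at -0.019, 0.006, -0.077, -0.127 and -0.041. With 1 mouse left out H2-D1 ran from -0.066 to 0.060, B2m from -0.072 to 0.032, Tap1 from -0.036 to 0.087 and Nlrc5 from -0.071 to 0.072. On scan day 2 Tap2 was at 0.33 without scaling (unadjusted p = 0.0552), and Psmb10 missed the threshold under quantile normalization (0.32), without scaling (0.33) and in the deposited table (0.30).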
